A study of Mus musculus with 2 samples.

Results

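The genes described here write, keep and remove DNA methylation: Dnmt1, Uhrf1, Dnmt3a, Dnmt3b, Dnmt3l, Tet1, Tet2, Tet3 and Tdg. The rule that chose them uses their names and no measured value, although it was set with earlier results of these data known, and their 9 promoter sets were compared with those of 21938 protein-coding genes. The question was whether SRCAP, the catalytic subunit of the remodeling complex that places the histone variant H2A.Z, was detected at these promoters, where, and how reproducibly. The measurement was CUT&Tag against SRCAP-YPet, in which an antibody directs the Tn5 transposase to the bound protein, with 2 replicates of 1 group. The cells were SYAT cells, mouse embryonic stem cells (mESC) of the CGR8 background in which both srcap alleles end in YPet and an auxin-inducible degron (AID) and which also express OsTir1. Both replicates were in the control condition with auxinole, an inhibitor that limits basal degradation of the tagged protein, after 3 days in medium with serum and LIF. Per sample, 200000 cells were bound by an anti-GFP antibody that recognises YPet, and transposition lasted 1 h. All cells carried the tag, so the untagged protein was not measured. Peak lists hold no expression values, so the cell type could not be checked against markers. The study describes its replicates in general as cells cultured and treated separately, and the labels do not say so for this pair.

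Methylation of cytosine in CpG dinucleotides is copied to new DNA strands by Dnmt1, which Uhrf1 brings to hemimethylated sites after replication. Dnmt3a and Dnmt3b place new methyl groups, and Dnmt3l, which lacks catalytic activity, stimulates them. Tet1, Tet2 and Tet3 oxidise 5-methylcytosine, and Tdg excises the more oxidised forms for replacement by base excision repair. H2A.Z and DNA methylation are known to occupy largely separate regions of the genome.

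SRCAP-YPet peaks were found in at least 1 replicate at the promoters of 4 of the 9 genes (44.4%), beside 34.0% of all protein-coding genes, 48.6% of those with 5 to 9 annotated start sites and 58.1% of those with 10 or more. A promoter was called when at least 1 bp of a peak lay between 1000 bp upstream and 500 bp downstream of any annotated transcription start site (TSS). Dnmt1 was called in both replicates, Tet3 in replicate 1 only, and Tet1 and Tdg in replicate 2 only. Uhrf1, Dnmt3a, Dnmt3b, Dnmt3l and Tet2 had no promoter peak in either replicate. This gave 2 genes in replicate 1 and 3 in replicate 2, a mean of 2.5 ± 0.707 (SD, n = 2).

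The sequences under the peaks are shown because the members differ in where the peak lay and in how many CpG sites it covered. They were read from GRCm38, the assembly of mm10, on the strand of the gene, with CpG in capitals. Exon bases that are not translated were left out of the printed stretches. The Dnmt1 stretch is chr9:20952654-20952787 (minus strand), which lies in the peaks of both replicates. It opens with the first codon of the long protein and runs through the 80 coding bases of that exon into the first intron. The Tet1 stretch is chr10:62886885-62887171 (minus strand), the intronic part of the peak downstream of the first exon. The Tet3 stretch is chr6:83457142-83457433 (minus strand), the whole peak. The Tdg stretch is chr10:82629515-82629814 (plus strand), the 300 bases of the peak closest to the gene.
Dnmt1, both replicates: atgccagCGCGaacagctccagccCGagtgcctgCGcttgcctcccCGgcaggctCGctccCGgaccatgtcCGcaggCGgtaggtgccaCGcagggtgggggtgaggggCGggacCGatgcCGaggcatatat
Tet1, replicate 2: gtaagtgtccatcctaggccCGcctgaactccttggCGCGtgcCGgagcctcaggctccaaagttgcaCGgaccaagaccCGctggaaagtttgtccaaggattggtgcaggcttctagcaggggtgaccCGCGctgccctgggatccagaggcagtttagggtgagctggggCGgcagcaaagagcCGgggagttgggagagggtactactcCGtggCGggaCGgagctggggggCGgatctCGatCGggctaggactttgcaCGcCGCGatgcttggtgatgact
Tet3, replicate 1: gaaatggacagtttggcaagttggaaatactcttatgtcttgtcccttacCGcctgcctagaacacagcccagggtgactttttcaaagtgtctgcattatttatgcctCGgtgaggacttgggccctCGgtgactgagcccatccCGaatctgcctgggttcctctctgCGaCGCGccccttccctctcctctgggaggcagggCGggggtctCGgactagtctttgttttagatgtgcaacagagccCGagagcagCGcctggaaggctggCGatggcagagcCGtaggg
Tdg, replicate 2: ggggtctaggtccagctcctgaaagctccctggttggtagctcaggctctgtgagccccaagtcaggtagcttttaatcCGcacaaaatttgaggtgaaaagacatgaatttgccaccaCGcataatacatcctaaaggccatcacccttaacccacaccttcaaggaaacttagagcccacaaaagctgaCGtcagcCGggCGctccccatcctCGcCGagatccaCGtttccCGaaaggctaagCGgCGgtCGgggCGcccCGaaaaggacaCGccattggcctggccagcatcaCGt
The stretches held 13 CpG sites in 134 bases for Dnmt1, 19 in 287 for Tet1, 13 in 292 for Tet3 and 16 in 300 for Tdg. For contrast, a pair of promoters without a peak is shown as the 250 bases before a RefSeq start. The upstream Dnmt1 start, at chr9:20959889-20960138 (minus strand), held 2 CpG sites, and the Tet2 start, at chr3:133544391-133544640 (minus strand), held 51.
Dnmt1, upstream start: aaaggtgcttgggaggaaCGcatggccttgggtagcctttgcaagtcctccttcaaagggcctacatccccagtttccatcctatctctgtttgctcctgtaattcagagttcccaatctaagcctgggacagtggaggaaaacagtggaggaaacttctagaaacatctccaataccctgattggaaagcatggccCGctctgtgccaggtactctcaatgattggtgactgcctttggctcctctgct
Tet2: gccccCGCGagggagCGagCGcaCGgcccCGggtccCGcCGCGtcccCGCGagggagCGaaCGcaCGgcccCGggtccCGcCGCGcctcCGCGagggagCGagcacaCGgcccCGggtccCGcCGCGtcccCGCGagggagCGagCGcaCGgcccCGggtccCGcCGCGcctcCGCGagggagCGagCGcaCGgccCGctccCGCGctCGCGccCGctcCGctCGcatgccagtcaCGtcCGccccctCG
A stretch with very few CpG sites and one denser in CpG than any printed peak were thus both without a peak.

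The count of 9 genes was read against all protein-coding genes. Replicate 1 called 15.7% of them, replicate 2 called 30.4%, and 12.0% were called by both. For the members the corresponding shares were 22.2%, 33.3% and 11.1%, so each share was within 1 gene of the background. The members have 5 to 18 annotated TSSs each, 80 in all, and a gene with more TSSs has more windows in which a peak can fall. Among protein-coding genes with 5 to 9 TSSs, 23.0%, 43.7% and 18.1% were called in replicate 1, replicate 2 and both. Among those with 10 or more the shares were 25.7%, 53.1% and 20.7%. From the class with 5 to 9 TSSs the shares of the members differed by less than 1 gene of the 9. Dnmt3a, Tet1, Tet2 and Tdg have 10 or more TSSs. In replicate 2 the 33.3% of the members was below the 53.1% of that class by more than 1 gene. With 1 group and no control library analysed here, no test was made.

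The lists differed in length, with 6158 peaks in replicate 1 and 12958 in replicate 2, and give no read number, so depth is unknown and a missing peak means that none was called, not that SRCAP was absent. Both lists held whole-number scores from 13 upward, a value of the peak caller that rises with −log10 of the q-value and was compared only within a list. The median score was 32 in replicate 1 and 36 in replicate 2, and the median width 327 and 365 bp.

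**Figure D1:**
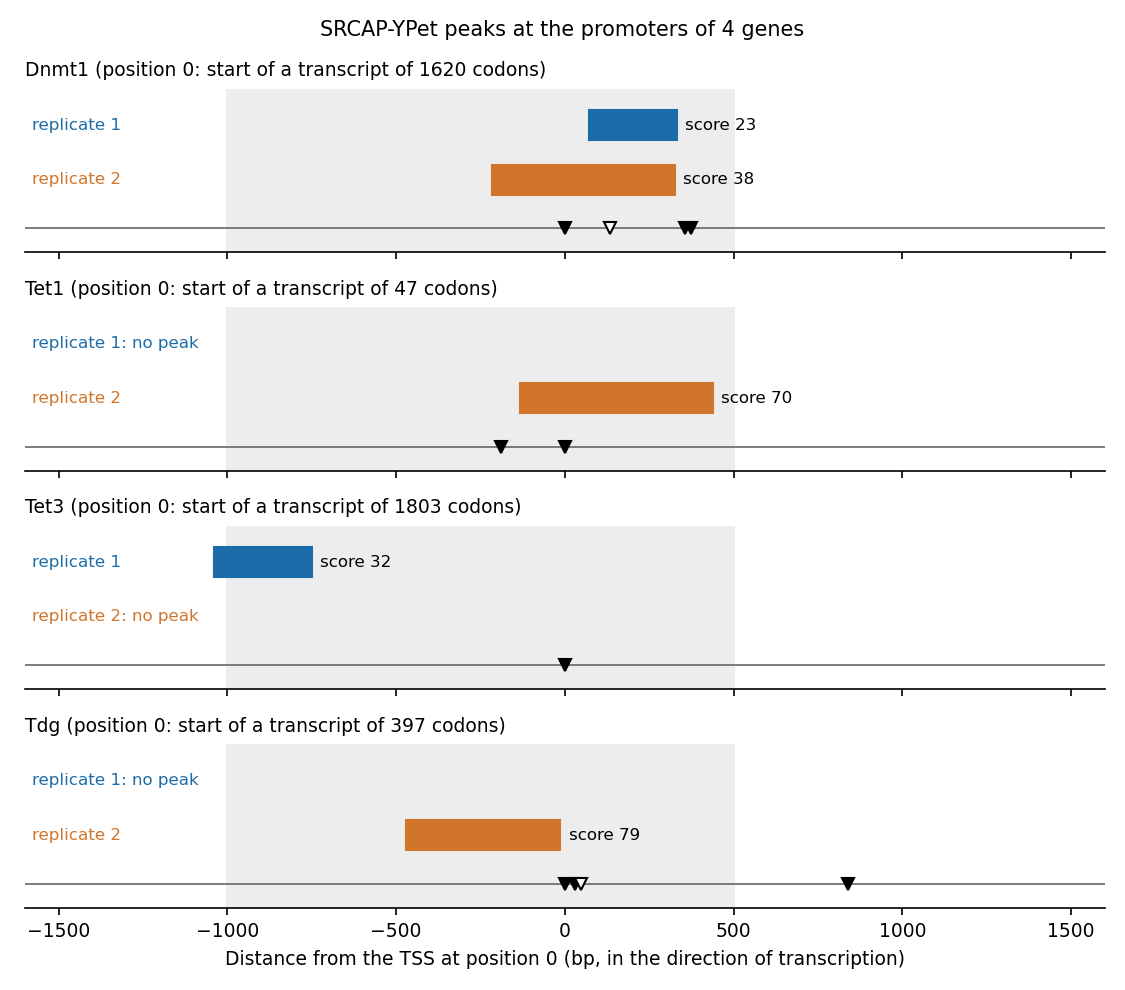
Promoter peaks of the 4 called genes against distance from 1 TSS of each gene (x axis, bp, in the direction of transcription), with a bar for each peak, blue for replicate 1 and orange for replicate 2. Grey marks the promoter window around that TSS (1000 bp on the upstream side and 500 bp on the other), and triangles mark TSSs of protein-coding (black) and other (white) transcripts. The Dnmt1 bars overlap, the Tet1 bar spans its TSS, the Tdg bar ends 14 bp upstream of its TSS, and the Tet3 bar lies mostly inside the far upstream end of the window.

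Among the maintenance genes, Dnmt1 (ENSMUSG00000004099.16) lies on chromosome 9, minus strand, at 20907209 to 20959888. Its peak in replicate 1 was chr9:20952649-20952906, 258 bp wide, with a score of 23. Its peak in replicate 2 was chr9:20952654-20953194, 541 bp wide, with a score of 38. The peaks shared 253 bp, which is 98.1% of the replicate 1 peak and 46.8% of the replicate 2 peak. Their borders on the downstream side of the gene differed by 5 bp and those on the upstream side by 288 bp.

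The midpoint of the replicate 1 peak was 68 bp downstream of the TSS at 20952845, that of a transcript without a coding sequence. Its distance from the nearest coding TSS, at 20952623, was -154 bp, the minus sign meaning upstream. The midpoint of the replicate 2 peak was 55 bp downstream of the TSS at 20952979, and the peak held this start and the one at 20952845. The start at 20952979 belongs to the transcript of 1620 codons, whose first coding base is 192 bp downstream of its TSS. In replicate 1 the peak covered 80 coding, 119 untranslated exon and 59 intron bases, and in replicate 2 it covered 80, 192 and 269.

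Dnmt1 has 7 TSSs, and the windows of 4 were called in both replicates. One that was not belongs to a transcript that starts upstream and encodes 1501 codons. Its start at 20959888 was 6982 bp from the nearest peak in replicate 1 and 6694 bp in replicate 2. An upstream start of Dnmt1 is known to be used in oocytes, where it gives a shorter protein. Replicate 2 also held a pair of intronic Dnmt1 peaks, chr9:20934061-20934448 with a score of 13 and chr9:20943780-20944076 with a score of 50.

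The Dnmt1 promoter peak was low in the list of replicate 1 and near the middle of that of replicate 2. In replicate 1, 22.6% of all peaks and 17.3% of peaks at promoters had a lower score. In replicate 2 these shares were 53.8% and 42.2%. In both replicates its score was below the median of called protein-coding genes, 36 and 44.

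Uhrf1, the partner of Dnmt1 (chromosome 17, plus strand, 56303321 to 56323486), had no peak in the gene in either replicate. The nearest peak in replicate 1 was at the promoter of the neighbouring gene Kdm4b, with a score of 117. It was 7708 bp from the Uhrf1 TSS at 56318026, that of a transcript without a coding sequence. From the RefSeq start at 56304313 it was 21421 bp away. The nearest in replicate 2 was 12755 bp from the Uhrf1 TSS at 56303321, at the promoter of Plin3, with a score of 56. The neighbourhood of Uhrf1 thus held peaks with scores above the median of their lists while its own 7 TSS windows held none.

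None of the de novo genes had a peak at a promoter or elsewhere in the gene. Dnmt3a (chromosome 12, plus strand, 3806007 to 3914443) has 18 TSSs, the most of the 9 genes. Its nearest peak was 74736 bp from a TSS in replicate 1 and 53201 bp in replicate 2. For Dnmt3b (chromosome 2, plus strand, 153649450 to 153687730) the distances were 138337 and 418526 bp, so no peak lay near this gene in either list. For Dnmt3l (chromosome 10, plus strand, 78041947 to 78063622) they were 24967 and 13600 bp. The 3 genes together have 30 of the 80 TSS windows, none of them called.

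Among the genes of oxidation, Tet1 (chromosome 10, minus strand, 62804570 to 62908996) was called in replicate 2 with the peak chr10:62886885-62887456, 572 bp wide, with a score of 70. In that list 85.1% of all peaks and 79.8% of promoter peaks had a lower score. The peak held the TSS at 62887324, which is also the RefSeq start, and its midpoint was 154 bp downstream of it. It covered 197 untranslated exon bases and 375 intron bases. The peak called 2 of 10 windows, both of transcripts annotated with 47 codons, and those of the transcripts of 2007 and 2039 codons had none. The annotated transcripts of 47 codons end inside the gene, at 62879873, so 47 codons need not be the full length of their product. A further intronic peak in replicate 2, chr10:62873038-62873426, had a score of 30. In replicate 1 the nearest peak was 71455 bp from any Tet1 TSS, so the Tet1 peak had no counterpart in the shorter list.

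Tet2 (chromosome 3, minus strand, 133463679 to 133545139) had no promoter peak. Replicate 2 held 1 intronic peak, chr3:133533390-133533789, 400 bp wide, with a score of 29 and 10497 bp from the nearest TSS. In replicate 1 the nearest peak was 380208 bp away.

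Tet3 (chromosome 6, minus strand, 83362373 to 83459084) was called in replicate 1 with the peak chr6:83457142-83457433, 292 bp wide, with a score of 32. In that list 49.3% of all peaks and 41.4% of promoter peaks had a lower score. Its midpoint was at -895 bp from the TSS at 83456392, where the transcript of 1803 codons starts, and the whole peak lay in an intron of a transcript that starts farther upstream. It was 15464 bp from the RefSeq start. In replicate 2 the nearest peak was 47461 bp from a Tet3 TSS, at the promoter of Dguok. Among called protein-coding genes in replicate 1 the strongest promoter peak had a median distance from midpoint to TSS of 135 bp, with quartiles of 55 and 257 bp, so the Tet3 peak was far outside the middle range.

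Tdg, the glycosylase (chromosome 10, plus strand, 82629828 to 82650799), was called in replicate 2 with the peak chr10:82629358-82629814, 457 bp wide, with a score of 79. In that list 88.8% of all peaks and 84.6% of promoter peaks had a lower score. The peak lay outside the gene, ended 14 bp from the TSS at 82629828, and called 4 of 11 windows. It held no TSS, so the call is lost where a TSS inside the peak is required. Its midpoint was at -242 bp from that TSS, a distance inside the quartiles of 54 and 257 bp for called genes in replicate 2. In replicate 1 the nearest peak was 121902 bp away.

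**Figure D2:**
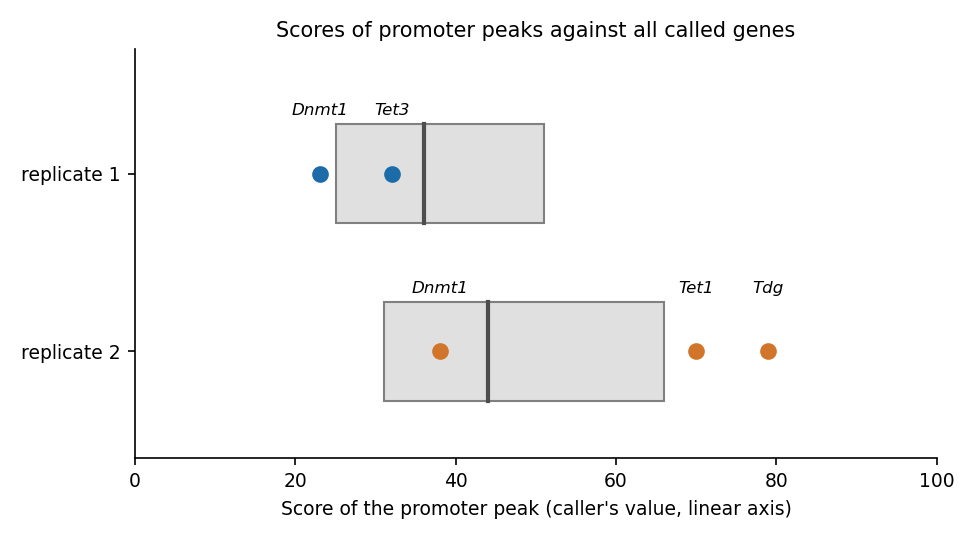
Score of each promoter peak of the 9 genes (x axis, the caller's value on a linear scale) in replicate 1 (blue) and replicate 2 (orange), over a grey box from the lower to the upper quartile of the strongest promoter peaks of all called protein-coding genes, with their median as a line. Dnmt1 lies below the median in both replicates and Tet3 below it in replicate 1, while Tet1 and Tdg lie above the upper quartile in replicate 2.

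The order of the scores therefore differed from the order of reproducibility. In replicate 1 the member peaks scored 23 and 32, a median of 27.5 against 36 over 3445 called protein-coding genes. In replicate 2 they scored 38, 70 and 79, a median of 70 against 44 over 6660 genes. The highest-scoring pair, Tet1 and Tdg, had no peak in replicate 1, and Dnmt1, with the lowest score in each list among these genes, was found in both. The widths of 258 and 292 bp in replicate 1 were below the median of 356 bp for called genes. The widths of 541, 572 and 457 bp in replicate 2 were above the median of 421 bp.

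Over the whole length of the genes the counts were also near those of other genes. The members span 544.8 kb, with 2 peaks in 2 genes in replicate 1 and 6 peaks in 3 genes in replicate 2, beside 17.1% and 32.5% of protein-coding genes with a peak in the gene. The Tdg peak lies outside the gene and is not counted. This is 0.367 and 1.10 peaks per 100 kb, against 0.397 and 0.832 over protein-coding genes.

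CpG content was compared because promoters rich in CpG were called more often. The ratio of observed to expected CpG is 1 where CpG is as frequent as its bases predict. Among protein-coding genes with a ratio of at least 0.6 in 1 promoter window or more and with 5 TSSs or more, 27.6% were called in replicate 1, 53.6% in replicate 2 and 22.3% in both. Among genes below 0.6 in every window, also with 5 TSSs or more, the shares were 15.5%, 30.2% and 11.3%. Of the 9 genes, 7 reached 0.6, and Dnmt1 and Dnmt3l did not. Of those 7, only Tet3 was called in replicate 1, only Tet1 and Tdg in replicate 2, and none in both.

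**Figure D3:**
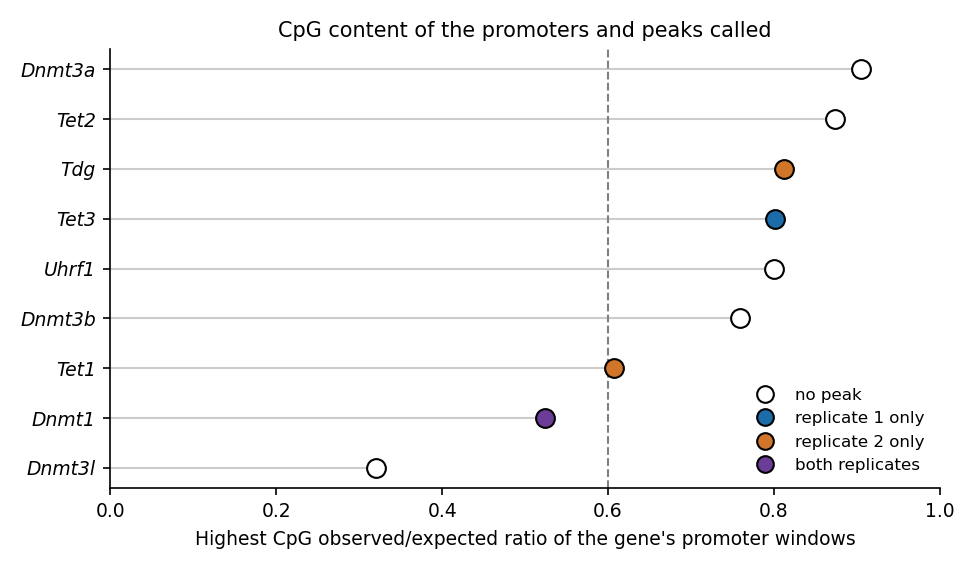
Highest ratio of observed to expected CpG over the promoter windows of each gene (x axis, no unit), coloured by the replicates in which the gene was called, with a dashed line at 0.6. Dnmt3a and Tet2 have the highest ratios and no promoter peak, and Dnmt1, called in both replicates, is 1 of the 2 genes left of the line.

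The highest ratios were 0.905 for Dnmt3a and 0.873 for Tet2, neither of which was called. Tdg reached 0.812, Tet3 0.801, Uhrf1 0.801, Dnmt3b 0.759 and Tet1 0.607, of which Tdg, Tet3 and Tet1 were called in 1 replicate. Dnmt1 reached 0.524 in its most CpG-rich window, and Dnmt3l reached 0.320, the lowest. The bases under the Dnmt1 peaks were richer in CpG than its window, with ratios of 0.847 in replicate 1 and 0.655 in replicate 2. The peaks of Tet1, Tdg and Tet3 had ratios of 0.611, 0.607 and 0.552. The median over strongest promoter peaks was 0.743 in replicate 1 and 0.745 in replicate 2, so the Dnmt1 peak of replicate 1 was the only member peak above its list's median. The GC content of the peaks was 66.3% and 63.8% for Dnmt1, 63.5% for Tet1, 56.8% for Tet3 and 55.6% for Tdg, beside medians of 63.9% and 63.1%.

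Promoter motifs were looked for on both strands in 300 bp centred on each peak midpoint, as exact letters. The GC box, GGGCGG, was found around both Dnmt1 midpoints and that of Tet3, and not around those of Tet1 and Tdg, although 2 lie in the printed Tet1 stretch. It was present at 63.4% of strongest promoter peaks in replicate 1, at 59.7% in replicate 2 and around 38.9% of all coding-gene TSSs. The CCAAT box, CCAAT, was found around both Dnmt1 midpoints and that of Tet1, beside shares of 37.5%, 33.5% and 32.7%. Neither was found around the Tdg midpoint, although 1 CCAAT lies in the printed Tdg stretch nearer to the TSS. The NRF1 strings GCATGC and TGCGCA, held by 7.43% and 8.02% of TSS windows, were found around the Dnmt1 midpoint of replicate 2 alone. The Kaiso string CGCGAGA, the ETS string CCGGAA, the YY1 string ATGGCG, the E-box CACGTG and the TATA box TATAAA, held by 3.09% to 16.7% of TSS windows, were found around no promoter peak midpoint of the 9 genes, although 1 ATGGCG, on the other strand and overlapping the CCAAT, lies in the printed Tdg stretch. These matches describe letters in a window and say nothing of the factors.

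The wider machinery was described by 63 genes in 6 lists. Of these, 14 (22.2%) were called in replicate 1, 29 (46.0%) in replicate 2 and 8 (12.7%) in both, while 28 had no promoter peak. The genes called in both were Trdmt1, Ung, Apex1, Neil3, Pcna, Setd2, Mat2a and Tdh. This count of 8 fell to 4 with peak lists of equal length, to 4 with a TSS required inside the peak and to 2 with a minimum score of 50. The lists have a median of 6 TSSs per gene, and among protein-coding genes with 5 to 9 TSSs the corresponding shares were 23.0%, 43.7% and 18.1%.

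**Figure D4:**
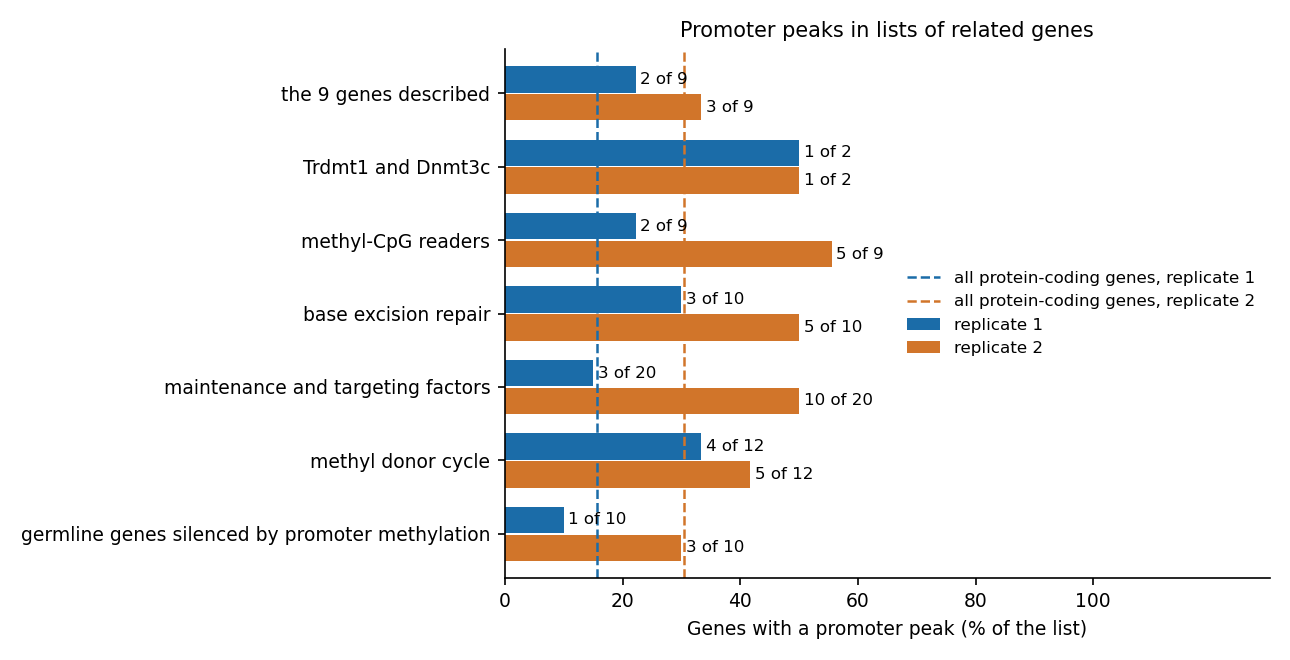
Share of genes with a promoter peak (x axis, % of the list) for the 9 genes and the 6 lists in replicate 1 (blue) and replicate 2 (orange), with the number of genes beside each bar and dashed lines at 15.7% and 30.4% of all protein-coding genes. Base excision repair has 3 of 10 and 5 of 10 genes called, and the maintenance and targeting factors have 3 of 20 and 10 of 20.

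Base excision repair, which completes the removal started by Tdg, had 3 of 10 genes called in both replicates, beside 12.0% of all protein-coding genes and 18.1% of those with 5 to 9 TSSs. Ung, a uracil glycosylase, scored 31 in replicate 1 and 80 in replicate 2. Apex1, which cuts the strand where a base was removed, scored 31 in each. Neil3, a glycosylase of oxidised bases, scored 61 and 76. Neil1 and Xrcc1 were called in replicate 2 only, and Lig3, Parp1, Polb, Neil2 and Smug1 in neither.

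Of the 20 maintenance and targeting factors, 3 (15%) were called in replicate 1, 10 (50%) in replicate 2 and 2 (10%) in both. For all protein-coding genes the shares were 15.7%, 30.4% and 12.0%. For those with 5 to 9 TSSs they were 23.0%, 43.7% and 18.1%, and this list has a median of 6.5 TSSs. Pcna, the replication clamp, scored 41 and 163, and its peaks were centred at -58 and -73 bp from a TSS. Setd2, which methylates histone H3 at lysine 36, scored 52 and 65. Cdca7, an activator of the remodeler encoded by Hells, was called in replicate 1 only, 8 others were called in replicate 2 only, and 9 were called in neither.

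The methyl donor cycle, which makes S-adenosylmethionine, had 2 of 12 genes called in both (16.7%). This stood beside 12.0% of all protein-coding genes and 18.1% of those with 5 to 9 TSSs. Mat2a, the synthetase, scored 58 and 36, and Tdh, threonine dehydrogenase, which feeds one-carbon metabolism in mESC, scored 35 and 22. Mthfd1 and Mtrr were called in replicate 1 only, Gnmt, Ahcy and Mat2b in replicate 2 only, and those called in neither included Shmt1, Shmt2, Mtr and Ahcyl1.

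Of the 9 methyl-CpG readers, 2 (22.2%) were called in replicate 1, 5 (55.6%) in replicate 2 and none in both, beside 15.7%, 30.4% and 12.0% of protein-coding genes. This list has a median of 6 TSSs, and for protein-coding genes with 5 to 9 TSSs the shares were 23.0%, 43.7% and 18.1%. Mbd4 and Zbtb38 were called in replicate 1, those called in replicate 2 included Mbd1, Mbd2, Mbd3 and Uhrf2, and Zbtb4 and Zbtb33 were called in neither. Uhrf2, the paralogue of Uhrf1, scored 56 in replicate 2, with its peak centred at -163 bp from a TSS. Of the close relatives of the methyltransferases, Trdmt1, which methylates transfer RNA, was called in both with scores of 36 and 25, and Dnmt3c, which acts in male germ cells, in neither.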

How the data were processed

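Per the labels and the study's methods, reads were processed with STAR, Picard and MACS2 against mm10, with Drosophila nuclei as a spike-in. The MACS2 call that the study prints for ChIP-seq takes an input sample as its control, and whether the same was done for these lists is not known. The authors deposited 1 peak list per replicate, called separately, with position and a score, the whole-number value of the peak caller. The lists hold no fold enrichment, summit or read number.

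Here, peaks were overlapped with promoters of GENCODE release M21 (1000 bp upstream to 500 bp downstream of any TSS, at least 1 bp), and the background was every protein-coding gene. Distances of a peak midpoint run to the nearest TSS unless another is named. Distances of a nearest peak, and those from a RefSeq or other named start, run from the closest edge of the peak. The overlap code was tested on simulated data. Sequences came from GRCm38, and the RefSeq promoters of all 9 genes equalled it. All 9 genes are named, and of 63 pathway genes those called in both replicates, with others named where a count was 5 or fewer, except for some that are not reported here by name. The members and lists were chosen with earlier results of these data known. Python 3.11.15, numpy 2.4.6, pandas 2.3.3 and matplotlib 3.10.9 were used.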

Additional observations from a re-analysis of the deposited data

How the results depend on the processing

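The counts of called genes were recomputed under 7 other rules, and under RefSeq starts, which were chosen after seeing the data. Requiring a TSS inside the peak gave 1 member in replicate 1 (Tet3 lost), 2 in replicate 2 (Tdg lost), a mean of 1.5 and 4 pathway genes in both replicates. A minimum score of 50 gave 0 members in replicate 1, 2 in replicate 2 (Tet1 and Tdg), 0 in both, a mean of 1 and 2 pathway genes, so the Dnmt1 call rests on scores under 50. Lists of equal length, 6158 peaks each, gave 4 pathway genes in both and kept the 3 members of replicate 2. RefSeq starts gave 1 member in replicate 1, since the Tet3 peak is not near the RefSeq start, and 49 of 63 pathway genes had one. Leaving out 1 replicate gave 2 to 3 members. With coding transcripts alone, the Dnmt1 peak of replicate 1 had its midpoint at -154 bp, upstream instead of downstream of the TSS. The other 65 of 75 recomputed values kept their direction and stayed within the limits set, at most 1.5 times for a count and under 1 SD for a score. Some of these could not differ. Each called member had 1 promoter peak in a replicate, so the peak nearest to a TSS was the same peak. The SD was that between the replicate medians of 27.5 and 70, a wide limit. The replicate 1 median at a minimum score of 50, where no member was left, was not counted. No paired analysis was possible because both libraries belong to a single group. With depth unknown, weaker binding cannot be told apart from no binding.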

Other observations

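Germline genes that are kept silent by promoter methylation were the last of the 6 lists. Of 10 genes, 1 was called in replicate 1 and 3 in replicate 2, and none in both, beside 15.7%, 30.4% and 12.0% of protein-coding genes. Asz1, a factor of germ cell RNA granules, was called in replicate 1 with a score of 23. Dazl, a germ cell RNA-binding protein, Mael, a piRNA pathway factor, and Slc25a31, a mitochondrial carrier of germ cells, were called in replicate 2 with scores of 47, 30 and 25. The genes of this list have a median of 2 TSSs, and among protein-coding genes with 2 to 4 TSSs the shares were 13.8%, 26.0% and 10.5%. Methylation itself was not measured in these samples.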
